A study of Mus musculus with 5 samples.

Results

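Nucleolar ribosome assembly factors are the proteins that cut, fold, modify and package the ribosomal RNA precursor into the small and large ribosomal subunits. A list of 60 such genes was followed in GL261 cells, a mouse glioma line that is widely grown in culture and as a graft, out of 55490 genes listed and 13881 tested. Members were taken by gene name, and each gene's level was the sum of its transcripts' TPM (a level per transcript length, scaled to the same total in every library). They fall into 7 core proteins of the small nucleolar ribonucleoproteins (snoRNPs), 25 small-subunit factors, 22 large-subunit factors and 6 abundant nucleolar scaffold or regulatory proteins. The list was chosen by pathway and with the propionate-minus-chloride change in TPM of these same libraries in view, so counts and medians over the members describe the list and test nothing about it.

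Cells were exposed to 1 uM sodium propionate, the salt of a short-chain fatty acid, or to 1 uM sodium chloride, which carries the same cation, and total RNA was taken after 24 h. The labels give the dose in that unit, and it could not be checked from the files. There were 3 chloride libraries (replicates 1, 2 and 3) and 2 propionate libraries (replicates 2 and 3), and propionate replicate 1 is not analysed here. All 5 libraries come from the 1 line with no genetic change named, and no label says that they came from separate cultures, so p-values measure only the spread between these libraries, which may be technical.

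In the nucleolus, RNA polymerase I transcribes a long precursor that holds the small-subunit RNA and most of the large-subunit RNA. On it the small-subunit processome assembles from the UTP-A and UTP-B complexes, the U3 snoRNP and many single factors, while box C/D snoRNPs guide 2'-O-methylation and box H/ACA snoRNPs guide pseudouridylation. Large-subunit precursors then take up GTPases, DEAD-box helicases and the PeBoW complex (Pes1, Bop1 and Wdr12), and demand for all of these follows cell growth in tumour cells.

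Promoter sequence was read for 52 of the 60 members from RefSeq (GRCm38.p6), as 250 bases before and 50 bases after the annotated start, and 49 of these starts lay within 100 bases of the start of the member's most abundant transcript in the files. The 100 bases before the start are shown for the 5 members that passed the test described below, Utp20 (chr10:88826815-88826914, minus strand), Nop58 (chr1:59684906-59685005, plus), Pwp2 (chr10:78185150-78185249, minus), Heatr1 (chr13:12395275-12395374, plus) and Dkc1 (chrX:75095754-75095853, plus). Nop2 (chr6:125131783-125131882, plus) and Utp18 (chr11:93885767-93885866, minus) are added as members with an E-box in this stretch. Capitals mark CACGTG, the palindromic E-box bound by MYC and related factors, or CCGGAAGT, a core of ETS-family sites; both were searched on both strands, and each sequence runs 5′ to 3′ along its gene.
Utp20: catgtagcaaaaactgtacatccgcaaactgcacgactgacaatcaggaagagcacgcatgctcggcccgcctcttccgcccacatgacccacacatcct
Nop58: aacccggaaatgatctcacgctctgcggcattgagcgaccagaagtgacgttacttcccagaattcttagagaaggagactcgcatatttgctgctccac
Pwp2: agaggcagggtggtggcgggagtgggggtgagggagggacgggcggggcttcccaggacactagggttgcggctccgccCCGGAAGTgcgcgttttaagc
Heatr1: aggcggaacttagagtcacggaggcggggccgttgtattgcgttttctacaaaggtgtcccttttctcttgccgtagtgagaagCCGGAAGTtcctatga
Dkc1: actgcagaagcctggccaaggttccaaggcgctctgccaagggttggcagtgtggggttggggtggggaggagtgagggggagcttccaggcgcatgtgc
Nop2: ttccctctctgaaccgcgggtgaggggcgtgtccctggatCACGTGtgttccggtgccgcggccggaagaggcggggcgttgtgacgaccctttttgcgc
Utp18: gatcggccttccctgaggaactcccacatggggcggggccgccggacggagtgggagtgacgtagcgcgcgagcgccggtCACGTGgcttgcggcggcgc

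CACGTG was found in the 300-base window of 10 of the 52 members (19.2%), against 7.15% of all 32851 RefSeq promoters and 10.4% of the promoters of 9359 tested genes. CCGGAAGT was found in 15 of 52 (28.8%), against 3.89% and 9.12%. By class, the E-box was in 0 of 6 snoRNP, 6 of 23 small-subunit, 3 of 19 large-subunit and 1 of 4 scaffold promoters, and the ETS core in 2, 7, 6 and 0 of them. Pwp2 and Heatr1 carried the ETS core in the stretch shown above, and Utp20 carried an E-box within the 50 bases after its start. Neither motif was found in the windows of Nop58 and Dkc1. Members with either motif (23, of which 2 had both) had a median log2 change of -0.32 between propionate and chloride, and the 29 with neither had -0.24. The GC box GGGCGG, a common element of CpG-rich promoters, was in 71.2% of members and 65.6% of tested genes. The palindromic NRF1 site was in 1.92% and 2.27%. The palindromic element bound by BANP was in none of the 52 members and in 1.14% of tested genes. These are letter matches and not measured binding sites, and the window's median GC content was 58.6% in members and 61.0% in tested genes.

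Messenger RNA of most members was lower in both propionate libraries. Changes are given as log2(TPM + 1) in propionate minus chloride, with the standard error of limma's fit over all 13881 tested genes and p-values adjusted over all of them by the Benjamini-Hochberg method. The change was below 0 in 56 of 60 members, against 55.5% of all tested genes, and its median was -0.26 (quartiles -0.37 and -0.16, range -0.71 to 0.11), against -0.03. Of the members, 5 passed an adjusted p of 0.05 (background 1.82% of tested genes in either direction), all 5 as lower (background 0.504%) and 0 as higher (background 1.31%). At an unadjusted p under 0.05, 31 were lower (background 8.90%) and 0 higher (background 7.93%), and limma's voom on aligned bases also called 0 higher. Both propionate libraries lay below all 3 chloride libraries in 43 members (background 19.7%), both lay above them in 1 (background 14.8%), and the groups overlapped in 16. In bulk RNA, fewer cells of a type and less RNA per cell cannot be told apart.

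**Figure D1:**
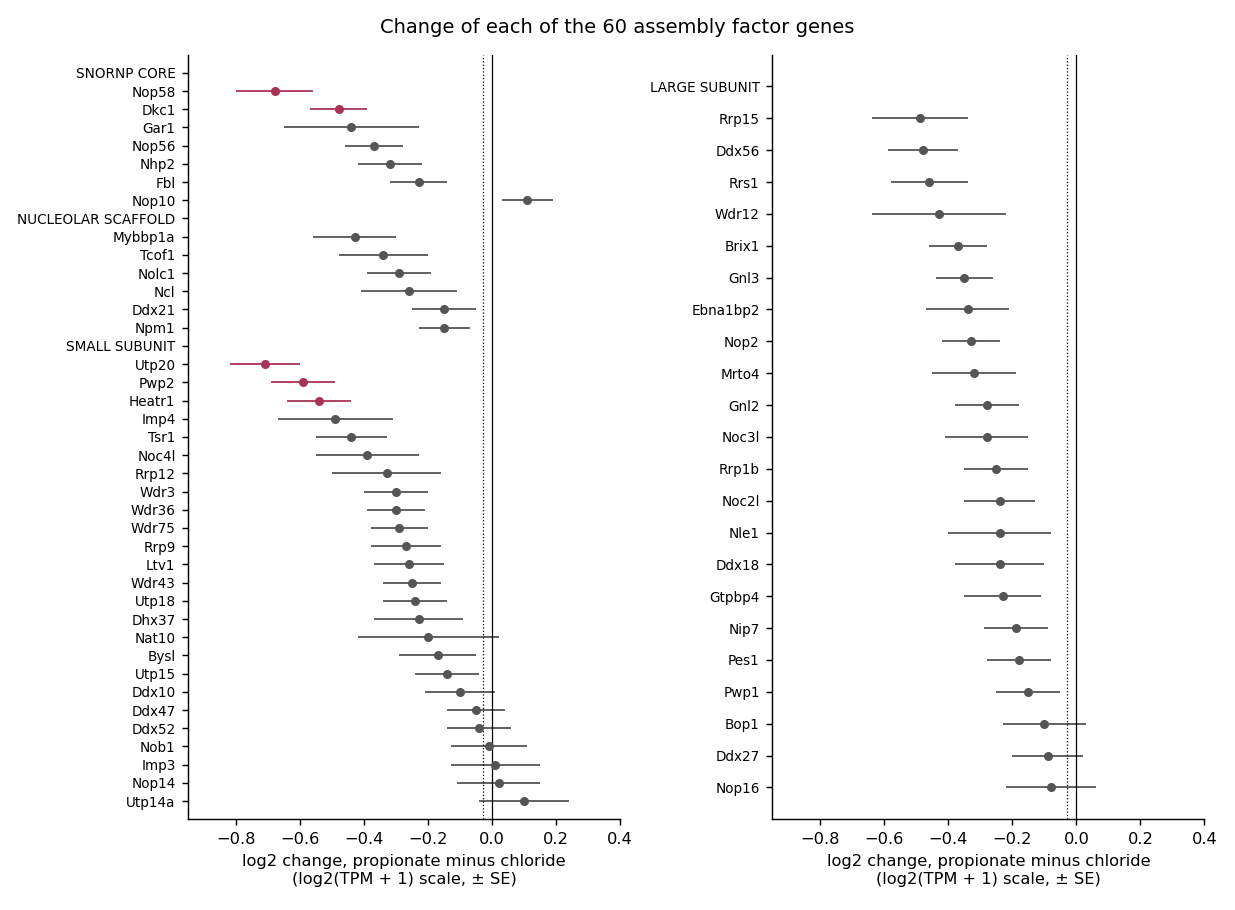
Change of each of the 60 members on the log2(TPM + 1) scale, propionate minus chloride (horizontal axis), by class; points are limma estimates, bars are ± 1 standard error, red marks adjusted p under 0.05 and the dotted line is the median of all tested genes. Of the points, 56 lie below 0, and Utp20 at -0.71 is the lowest.

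Among the snoRNP core proteins, 2 of 7 fell (background 0.504% of tested genes) and 6 of 7 changes were below 0 (background 55.5%). The class median was -0.37, against -0.03 over all tested genes. Nop58, a core protein of box C/D snoRNPs on which the U3 snoRNP also depends, lies at chr1:59684971-59719044 (plus strand). Its TPM was 30.7, 31.3 and 25.2 in chloride replicates 1, 2 and 3 and 17.4 and 18.0 in propionate replicates 2 and 3. The lowest chloride library stood well above both propionate libraries. Nop58 fell by 0.68 on the log2 scale (SE 0.12, adjusted p = 0.0322), from a mean of 29.1 ± 3.35 (SD, n = 3) to 17.7 ± 0.401 (SD, n = 2), or 39.1% lower. The size of this change depended on the setting, at -0.29 with voom on aligned bases (adjusted p = 0.0298) and -0.39 with reference transcripts alone (adjusted p = 0.506). Dkc1, the pseudouridine synthase of box H/ACA snoRNPs and also part of telomerase, lies at chrX:75095854-75109777 (plus strand). Dkc1 had 35.2, 34.3 and 37.4 TPM in chloride and 24.6 and 25.8 TPM in propionate, with no overlap. It fell by 0.48 (SE 0.09, adjusted p = 0.0465), from 35.6 ± 1.61 to 25.2 ± 0.803 TPM, or 29.3% lower.

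The partners of these 2 proteins did not pass in this fit. Nop56, which sits opposite Nop58 in the box C/D particle, had 104, 104 and 103 TPM in chloride and 74.2 and 85.7 in propionate, a change of -0.37 (SE 0.09, adjusted p = 0.0935). Nop56 passed as lower with median-of-ratios scaling (adjusted p = 0.0326), TPM over protein-coding genes (0.0225) and voom (0.0195), where its change of -0.37 was larger than that of Nop58. Fbl, the methyltransferase fibrillarin of the same particle, had 38.6, 38.6 and 38.8 TPM against 33.0 and 32.8, a change of -0.23 (SE 0.09, adjusted p = 0.242). Neither gene overlapped between groups in this fit, and the Fbl libraries of each group were nearly equal. With reference transcripts alone, Fbl was at 28.1, 36.0 and 38.8 TPM in chloride and 33.0 and 32.8 in propionate. There its groups overlapped, at a change of -0.05 (adjusted p = 0.928). In the box H/ACA particle, Nhp2 was at 77.9 ± 4.42 TPM in chloride and 62.2 ± 6.11 in propionate (-0.32, adjusted p = 0.161), and Gar1, the least abundant at 5.36 ± 1.67 and 3.59 ± 0.3 TPM, overlapped between groups. Nop10, the smallest protein of that particle, was the 1 member higher in both propionate libraries. Its TPM was 75.1, 75.8 and 75.7 in chloride and 82.0 and 80.9 in propionate, a change of 0.11 (SE 0.08, adjusted p = 0.56). The 4 box H/ACA proteins therefore ranged from -0.48 to 0.11, and the 3 box C/D proteins from -0.68 to -0.23.

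**Figure D2:**
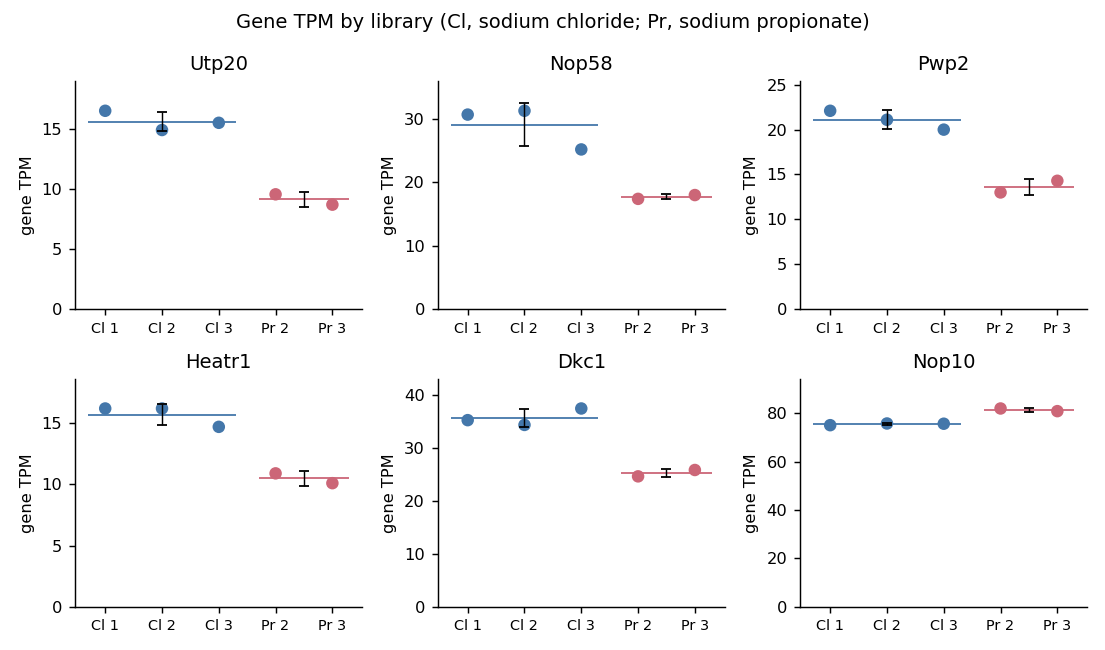
TPM per library (vertical axes, starting at 0) of Utp20, Nop58, Pwp2, Heatr1, Dkc1 and Nop10 in chloride and propionate; points are libraries, bars the mean ± SD (n = 3 and n = 2). The propionate points lie below all chloride points in the first 5 panels and above them for Nop10.

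Of the small-subunit factors, 3 of 25 fell (background 0.504% of tested genes) and 22 changes were below 0 (background 55.5%). The class median was -0.25, against -0.03 over all tested genes. Utp20, a very large helical-repeat protein of the small-subunit processome at chr10:88746607-88826804 (minus strand), had the largest change of all members. Its TPM was 16.5, 14.9 and 15.5 in chloride and 9.55 and 8.69 in propionate. The 2 groups were far apart for their spread: Utp20 fell by 0.71 (SE 0.11, adjusted p = 0.0187), from 15.6 ± 0.819 to 9.12 ± 0.613 TPM, or 41.5% lower. Pwp2, a scaffold protein of the UTP-B complex at chr10:78170909-78185149 (minus strand), had 22.1, 21.1 and 20.0 TPM in chloride and 13.0 and 14.3 in propionate. The files list 1 transcript for Pwp2, so its sum cannot shift between isoforms; it fell by 0.59 (SE 0.10, adjusted p = 0.0315), or 35.2% lower. Heatr1, the UTP10 protein of the UTP-A complex, which is also needed for RNA polymerase I transcription, lies at chr13:12395027-12440289 (plus strand). It had 16.2, 16.2 and 14.7 TPM in chloride and 10.9 and 10.1 in propionate, and fell by 0.54 (SE 0.10, adjusted p = 0.0469), or 33.0% lower.

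The rest of both complexes lay lower without passing in this fit. All 4 UTP-A members and all 4 UTP-B members had propionate libraries below every chloride library in this fit (background 19.7% of tested genes). With reference transcripts alone, groups overlapped in Wdr43 (21.8, 45.9 and 20.2 TPM against 38.8 and 40.7) and Wdr75 (14.7, 33.7 and 34.9 against 26.6 and 26.6). Wdr36 overlapped there too (23.0, 33.3 and 32.9 against 24.1 and 27.7). The changes of Wdr43 and Wdr75 were then 0.52 and 0.03. In the main fit, the UTP-A and UTP-B medians were -0.27 and -0.30. In UTP-A, Wdr43 had 48.7, 46.0 and 49.3 TPM against 39.8 and 40.7 (-0.25, SE 0.09, adjusted p = 0.213), and Wdr75 had 46.3, 41.7 and 42.9 against 35.6 and 35.4 (-0.29, SE 0.09, adjusted p = 0.169). Wdr3, Wdr36 and Utp18 of UTP-B had changes of -0.30, -0.30 and -0.24. The U3 snoRNP and MPP10 partners were uneven, with Imp4 at -0.49 (adjusted p = 0.231), Rrp9 at -0.27 and Imp3 at 0.01. Among late-acting 40S factors, the GTPase-like protein Tsr1 had 28.3, 27.3 and 24.5 TPM in chloride and 18.4 and 20.3 in propionate (-0.44, SE 0.11, adjusted p = 0.0843), while Nob1, the endonuclease that makes the final cut of 18S RNA, was at -0.01. Nop14 and Utp14a, both processome components, had changes of 0.02 (SE 0.13) and 0.10 (SE 0.14), and their groups overlapped. Small-subunit factors thus held both the largest fall and 3 of the 4 members with a change above 0.

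None of the 22 large-subunit factors passed the adjusted threshold in this fit, although all 22 changes were below 0 (background 55.5% of tested genes). Their median was -0.26 and their range -0.49 to -0.08. Of the 22, 10 were lower at an unadjusted p under 0.05 (background 8.90%) and 15 were lower with no overlap between groups (background 19.7%). By voom, 16 of the 60 members were called lower, beside 358 of all 13881 tested genes. The large-subunit factors called by voom were Brix1, Ddx56, Ebna1bp2, Gnl3, Nop2 and Rrp15. Brix1, Ddx56 and Nop2 also passed with median-of-ratios scaling and with TPM over protein-coding genes. Rrp15, a factor of the early pre-60S particle, had 24.6, 18.9 and 24.4 TPM in chloride and 14.1 and 17.5 in propionate (-0.49, SE 0.15, adjusted p = 0.141). Ddx56, a DEAD-box helicase, had 21.7, 21.7 and 21.3 TPM against 13.8 and 16.7 (-0.48, SE 0.11, adjusted p = 0.0761). Both were clear of chloride, by a narrow margin in Rrp15, whose lowest chloride library was at 18.9 TPM and whose higher propionate library was at 17.5.

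Nop2, which methylates a cytosine of 28S RNA, had 61.0, 59.6 and 60.8 TPM in chloride and 45.7 and 50.4 in propionate (-0.33, SE 0.09, adjusted p = 0.116). The GTPases Gnl3 (nucleostemin) and Gnl2 had means of 52.2 ± 2.79 and 49.0 ± 2.98 TPM in chloride and 40.8 ± 2.17 and 40.2 ± 1.71 in propionate. The third GTPase, Gtpbp4, had a change of -0.23. All 3 were lower with no overlap between groups (background 19.7% of tested genes). PeBoW was more uneven. Pes1 had 41.7, 40.8 and 41.0 TPM against 34.0 and 38.8 (-0.18, SE 0.10), Bop1 had 34.6, 36.3 and 32.4 against 28.1 and 36.5 (-0.10, SE 0.13), and Wdr12 had 5.31, 7.93 and 8.87 against 6.01 and 4.34 (-0.43, SE 0.21). Of these 3, only Pes1 had groups that did not overlap, and propionate replicate 3 held the highest Bop1 level of the 5 libraries. The 8 RNA helicases among the members (3 large-subunit and 4 small-subunit factors and the scaffold protein Ddx21) had the smallest median of the subclasses, -0.13, with Ddx47 at 43.5 ± 1.73 and 42.0 ± 0.865 TPM (-0.05, SE 0.09).

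All 6 nucleolar scaffold and regulatory proteins had both propionate libraries below every chloride library (background 19.7% of tested genes). None passed in this fit (median -0.28, range -0.43 to -0.15). With reference transcripts alone, Nolc1 was at 1.59, 3.21 and 1.46 TPM in chloride and 2.29 and 1.37 in propionate. There its groups overlapped, at a change of -0.10 (adjusted p = 0.918). Npm1 (nucleophosmin), the histone chaperone that forms much of the granular component, was by far the most abundant member, with a mean of 966 ± 32 TPM in chloride and 874 ± 71.6 in propionate (-0.15, SE 0.08, adjusted p = 0.427). Its propionate libraries were at 823 and 924 TPM and its lowest chloride library at 945. Ncl (nucleolin) had 23.3, 16.6 and 17.6 TPM against 16.1 and 15.2 (-0.26, SE 0.15, adjusted p = 0.414), so the groups were set apart by a small margin beside chloride replicate 1, which stood above the rest. Mybbp1a, a repressor of ribosomal RNA transcription among other roles, had 29.0, 24.4 and 21.5 TPM against 17.3 and 19.0 (-0.43, SE 0.13, adjusted p = 0.158). Nolc1 (Nopp140), a snoRNP chaperone, was at 27.4 ± 0.999 and 22.2 ± 1.95 TPM, Tcof1 (treacle), which links polymerase I to pre-rRNA modification, at 9.14 ± 1.06 and 7.01 ± 0.986, and the helicase Ddx21 at 59.5 ± 4.53 and 53.3 ± 2.67.

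The 2 propionate libraries did not lie equally low. Against the chloride mean, the members' median was -0.34 in propionate replicate 2 and -0.18 in replicate 3, while all tested genes had medians of -0.08 and 0.03. Without propionate replicate 2, 50 of 60 members and 19 of 22 large-subunit factors had changes below 0; without replicate 3, 59 and 22 did. Replicate 2 was below all chloride libraries in 55 members (background 43.9%) and replicate 3 in 44 (background 26.4%), and replicate 2 was the lower of the pair in 51 of 60 members and in 10406 of 13881 tested genes. The snoRNP core proteins had the lowest median of the 4 classes in both (-0.47 and -0.27), while the order of the other classes differed between the libraries. Summed TPM of the 60 members was 2734, 2612 and 2615 in chloride and 2159 and 2410 in propionate. Protein-coding genes held 49.1%, 47.7% and 46.7% of TPM in chloride and 45.2% and 50.3% in propionate, and small single-exon RNAs 18.3%, 19.1% and 19.1% against 20.9% and 17.6%, so propionate replicate 2 stood lowest in the former and highest in the latter. With TPM recomputed over protein-coding genes alone, the members' median change was -0.26, the value found over all genes. The protein-coding shares of the 2 propionate libraries lay on either side of the chloride shares. This group median therefore cannot show how the shares bear on the gap between propionate replicates 2 and 3. Medians per library were not computed on that scale, so their part in the gap was not tested.

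**Figure D3:**
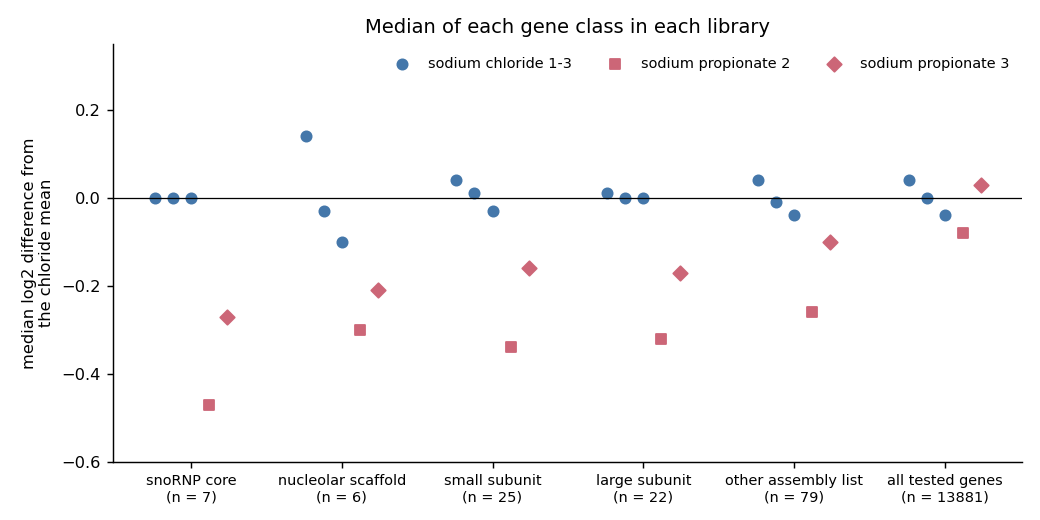
Median over the members of each class of the log2(TPM + 1) difference from the chloride mean (vertical axis), for each library; all tested genes are shown beside them. Every class lies below 0 in both propionate libraries, deeper in replicate 2 (snoRNP core -0.47) than in replicate 3 (-0.27).

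**Figure D4:**
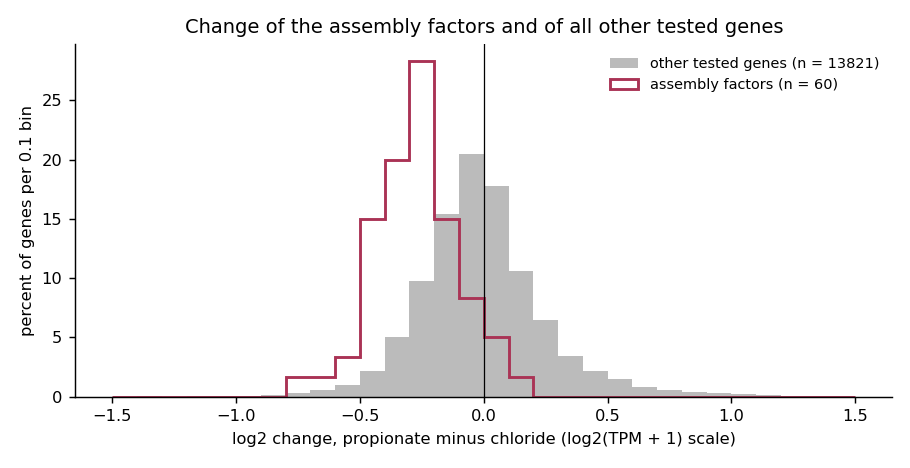
Distribution of the log2(TPM + 1) change over the 13821 other tested genes in bins of 0.1 (32 lie outside the axis of ±1.5), with the members marked. Members centre on -0.26 and lie inside the range of the other genes.

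A further list of ribosome assembly genes that are no members gives the wider pathway: 79 of its 80 genes were matched and tested. Their changes were below 0 in 73 (55.5% of all tested genes), with a median of -0.17, and 48 had propionate libraries below all chloride libraries (19.7% of all tested genes). Of the 79, 2 passed as lower (background 0.504%) and 0 as higher (background 1.31%), and 25 were lower (background 8.90%) and 0 higher (background 7.93%) at an unadjusted p under 0.05. Tbl3, the partner of Pwp2 in UTP-B, had 32.9, 33.9 and 31.9 TPM in chloride and 23.1 and 15.5 in propionate, and fell by 0.77 (SE 0.15, adjusted p = 0.0498). Wdr18, part of the complex that processes the second internal spacer, had 21.1, 19.5 and 23.0 TPM against 13.4 and 14.3, and fell by 0.58 (SE 0.11, adjusted p = 0.0411). Counting reference transcripts alone put Tbl3 at 0.20 (adjusted p = 0.899), so the direction of that change rests on transcripts assembled from the reads. With voom, Tbl3 was at -0.29 (adjusted p = 0.0573). The Wdr18 call was lost in several settings. Among them were no minimum TPM (adjusted p = 0.169), reference transcripts alone (0.187) and leaving out any chloride library (0.0686 to 0.111). The Wdr18 change was -0.63 to -0.52 across all settings.

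Several members carry snoRNA genes in their introns, and the RNAs spliced out with the host messenger serve the same pathway. The files list 21 small RNAs of up to 300 bases in 7 members, of which 8 reached a mean of 1 TPM, in Nop56, Nop58, Tsr1 and Wdr43. Of these, 3 had both propionate libraries below all chloride libraries (background 19.7% of tested genes). They are printed here as GENCODE M21 annotates them on GRCm38: Snord11 in Nop58 (chr1:59704790-59704873, plus strand), and Snord53 (chr17:71640879-71640956, plus) and Gm22858 (chr17:71641584-71641659, plus) in Wdr43. Capitals mark TGATGA, the letters of box C, and every CTGA, the letters of box D, whether or not they act as such a box.
Snord11: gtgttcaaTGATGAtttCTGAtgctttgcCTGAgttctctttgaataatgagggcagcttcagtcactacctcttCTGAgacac
Snord53: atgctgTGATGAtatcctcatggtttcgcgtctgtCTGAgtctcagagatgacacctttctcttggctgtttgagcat
Gm22858: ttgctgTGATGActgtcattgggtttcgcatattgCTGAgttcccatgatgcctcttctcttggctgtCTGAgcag

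Snord53 had 8.0, 8.17 and 8.54 TPM in chloride and 2.78 and 3.63 in propionate, at a mean coverage of 39.3 to 41.8 bases per position against 13.8 and 17.2. The groups were well apart, and Snord53 fell by 1.14 (SE 0.13, adjusted p = 0.00776), from 8.24 ± 0.276 to 3.20 ± 0.607 TPM, beside a change of -0.25 in its host Wdr43. The Snord53 call was lost with no minimum TPM (adjusted p = 0.136), reference transcripts alone (0.0879), voom (0.13) and without propionate replicate 3 (0.0592), at changes of -1.32 to -1.14. Gm22858, from the same host, had 4.13, 7.0 and 2.95 TPM against 2.34 and 1.80 (-0.83, SE 0.27, adjusted p = 0.174). Snord11 had 1.91, 2.23 and 1.45 TPM against 0.752 and 0.088 (-1.04, SE 0.25, adjusted p = 0.0876), at a coverage of 7.12 to 10.9 against 3.75 and 0.417. The other snoRNAs of Nop58 did not follow it: Snord70 had 1.64, 1.23 and 1.57 TPM against 0.836 and 3.13, and Gm26287 had a change of 0.10. In Nop56, Snord110 was at 2.41, 2.45 and 2.99 TPM against 0.437 and 4.09, which put the 2 propionate libraries at the lowest and highest levels. Snord91a and Gm22771 in Tsr1 had changes of 0.03 and 0.46 with overlapping groups. snoRNAs are short for this kind of library, and reads of host introns cannot be told from the snoRNA itself, so these levels are less certain than those of the messengers.

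**Figure D5:**
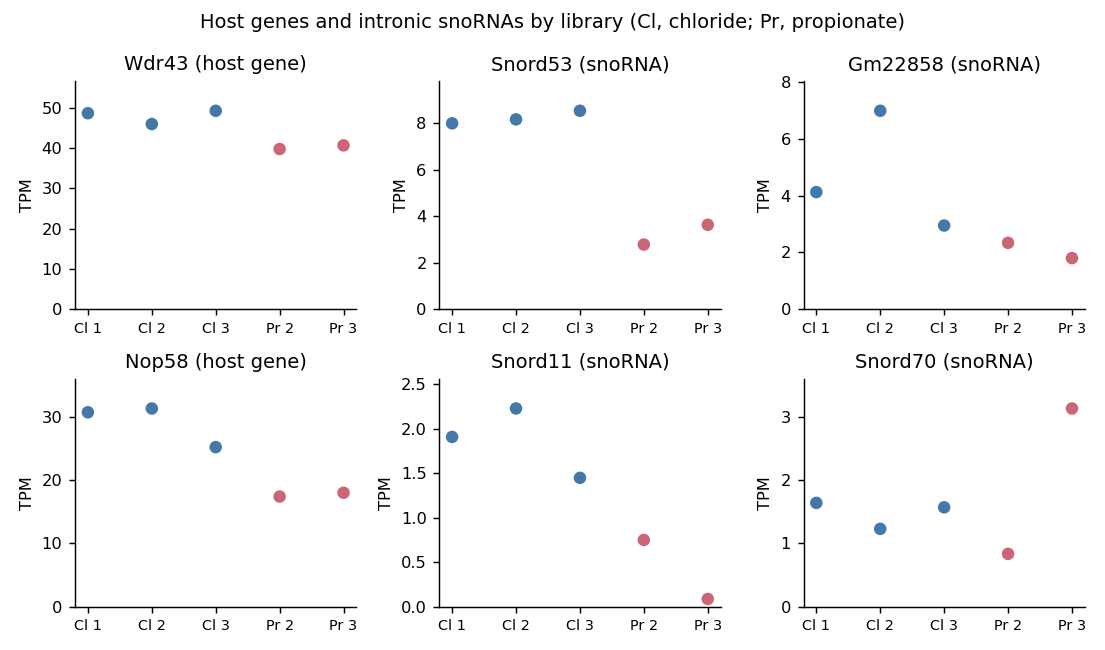
TPM per library (vertical axes, starting at 0) of the hosts Wdr43 and Nop58 and of snoRNAs in their introns (Snord53, Gm22858, Snord11 and Snord70). Points are libraries (n = 3 and n = 2). Snord53 separates the groups, while Snord70 spans them.

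The levels of some members, such as Dkc1 and Nop58, rest on how transcripts were assembled. Assembled transcripts were found in 19 members; they held 92.2% of TPM in Nolc1, 45.2% in Dkc1 and 44.6% in Nop2. With reference transcripts alone, the adjusted p of all 5 called members missed the threshold, with Dkc1 at 17.7, 14.9 and 29.4 TPM in chloride and 9.16 and 15.0 in propionate (adjusted p = 0.476), Nop58 at 27.4, 18.0 and 18.6 against 14.8 and 16.7 (adjusted p = 0.506), Utp20 at a change of -0.65 (adjusted p = 0.161), Pwp2 at -0.59 (0.164) and Heatr1 at -0.54 (0.193). Pwp2 and Heatr1 hold no assembled TPM, so their levels and changes were the same in both fits. The SE (0.102 and 0.104 for Pwp2, 0.104 and 0.108 for Heatr1) and the adjusted p differed. Nat10, the cytidine acetyltransferase of 18S RNA, was at 1.53, 2.21 and 1.28 TPM against 1.03 and 1.61 after a read-through transcript that overlaps Caprin1 more was given to that gene. With it, Nat10 would be at 25, 28.2 and 28.2 TPM in chloride and 8.80 and 37.7 in propionate, so no direction can be given for it. The most abundant transcripts of Nop58 (9507 bases), Wdr12 (10012) and Ncl (8202) are long reference models, as are those of Utp20 (8834) and Gtpbp4 (8783). Whether model length affects the TPM of these genes was not tested.

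The count of 5 called members depended on single libraries: 0 passed without chloride replicate 1, propionate replicate 2 or propionate replicate 3, Utp20 alone passed without chloride replicate 2, and Utp20 and Nop58 passed without chloride replicate 3. Scaling by median of ratios or over protein-coding genes gave 10 called lower, and voom 16. Of all 13881 tested genes, these 3 settings called 154, 182 and 358 lower, against 70 in the main fit.

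Each library held 7.19 to 7.63 Gb behind its deposited values, and 1 TPM stood for a coverage of 4.73 to 4.99. No pair of libraries was identical, and the SD of log2 differences was 0.321 to 0.326 between chloride libraries and 0.340 between the propionate libraries. Of 8 markers listed for glioma lines, 7 were tested. Pdgfra (11.6, 11.1 and 12.4 TPM in chloride, 22.6 and 22.4 in propionate, adjusted p = 0.00717) and Fabp7 (13.0, 12.9 and 14.4 against 21.5 and 26.0, adjusted p = 0.0196) rose. S100b was at 202 ± 6.82 and 157 ± 14.3 TPM with no overlap (-0.36, adjusted p = 0.0935), and Vim, Nes, Gfap and Sox2 did not pass (adjusted p from 0.4 to 0.991). Olig2 was under 1 TPM in every library, Vim was at 5470 to 7070 TPM, and the summed level of the 8 was 5800 to 7410 TPM in chloride and 6410 to 7200 in propionate. The 3 endothelial markers summed to at most 0.157 TPM and the 3 neuronal markers to at most 0.0423. The 6 leukocyte markers summed to 6.32 to 7.64 TPM in chloride and 10.3 to 12.2 in propionate, nearly all of it Cd68, a lysosomal gene that macrophages share with other cells. Cd68 itself was at 7.59, 7.03 and 6.22 TPM against 10.1 and 12.1 (adjusted p = 0.0594), and the part of these marker changes in the members' levels was not tested.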

How the data were processed

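RNA sequencing of total RNA from 5 GL261 libraries was analysed. Libraries were made with a stranded total RNA kit, per the labels. Per the file headers, the authors' deposited files were written by StringTie 2.1.1 with no strand option. They give TPM, FPKM and coverage for each of 157895 transcripts of 1 merged annotation, and no counts. Among the submitters' processing notes are the build mm10 and the tools fastp, HISAT2 and bcl2fastq, with no roles or versions given in the sources used here. Without strand, reads of overlapping or antisense genes cannot be told apart, and without counts the sampling error of a single library is unknown.

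Gene TPM was the sum over reference transcripts plus assembled transcripts of the same locus and strand, each given to the gene whose exons it overlapped most (12224 of 15415 assigned, 1553 overlapping several genes). Of reference transcripts found in GENCODE M21, 99.81% had the same start. log2(TPM + 1), in genes with a mean of at least 1 TPM, was fitted with limma 3.58.1 in R 4.3.3 (empirical Bayes with trend, two-sided, Benjamini-Hochberg, threshold 0.05); a log2 change on this scale understates the change of low genes. The script was tested on simulated data. An exact permutation test of 3 against 2 libraries cannot go below p = 0.1, so none was used. Alternatives were a pseudocount of 0.1, minimums of 5 or none, FPKM, other scalings, reference transcripts alone, voom on aligned bases divided by 100, leaving out each library, and a replicate block; counting assembled transcripts in every gene they overlap was added after seeing the data.

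The members and lists were chosen with earlier results of these data known. Named genes were every member past the threshold, in each class the 3 most abundant, the 2 with the largest rise and the 2 with the largest fall, hosts of intronic small RNAs with a mean of at least 1 TPM, the 3 with the most assembled TPM, and Ncl, Npm1, Fbl, Nop56, Nop58, Dkc1, Pes1, Bop1 and Wdr12; from the further assembly list, those past the threshold up to the 4 largest changes each way. Other members are named with values to complete a complex, and were chosen after their values were seen.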

Additional observations from a re-analysis of the deposited data

How the results depend on the processing

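Of the 60 members, 5 were called lower. That count was 0 with no minimum TPM or with reference transcripts alone, 2 with assembled transcripts counted in every gene they overlap, 10 with median-of-ratios scaling or TPM over protein-coding genes, 16 with voom, and 0 to 2 with a library left out. Of all tested genes, 182 were called higher and 70 lower. These counts were 2 and 1 with no minimum, 336 and 154 with median-of-ratios scaling, 5 and 6 with reference transcripts, 707 and 358 with voom, 126 and 40 with assembled transcripts in every overlapped gene, and 232 and 106 with FPKM, and 337 and 182 with TPM taken over protein-coding genes. Leaving out a library gave 8 to 124 higher and 7 to 46 lower. The 2 further assembly genes called lower became 1 with a pseudocount of 0.1, FPKM or median-of-ratios scaling, 0 with no minimum, reference transcripts or every overlapped gene, 8 with voom, and 0 to 1 with a library left out, where 0 to 1 were called higher. The members' median change ranged from -0.34 without propionate replicate 3 to -0.18 without propionate replicate 2. Signs turned in Wdr43 (0.52), Wdr75 (0.03) and Tbl3 (0.20) with reference transcripts, and with a library left out in Utp14a (-0.01 to 0.22), Nop14 (-0.10 to 0.13) and Bop1 (-0.28 to 0.08). Across all settings the sign also turned in Imp3 (-0.16 to 0.18), Nob1 (-0.15 to 0.13), Nop16 (-0.28 to 0.12), Ddx10 (-0.21 to 0.02), Ddx27 (-0.23 to 0.05), Ddx52 (-0.11 to 0.04) and Nle1 (-0.45 to 0.07). Where no fewer genes or libraries entered, the cause was not tested.

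With a replicate block, 2 members stayed called lower (Utp20 and Nop58), 1 further assembly gene was called lower, 264 genes were higher and 104 lower, and the snoRNAs Gm22858 and Snord11 gained a call (adjusted p = 0.0313 and 0.0326). Deviations of same-numbered libraries from their group means had r = -0.223 for number 2 and -0.196 for number 3. With 2 propionate libraries these deviations are exact opposites, so the r values cannot decide whether the numbers pair the libraries.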

Other observations

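The retained-intron share of a member's TPM, chosen for description after its values were seen, was above 0 in 40 members, with a median over members of 3.94% in chloride and 3.01% in propionate. It was higher without overlap in 4 (Gnl3, Wdr75, Nat10 and Pwp1) and lower without overlap in 5 (Heatr1, Noc4l, Gtpbp4, Bop1 and Ddx47). The matching share over all tested genes was not computed, so these counts cannot be read as particular to the members. Wdr75 moved most: 7.58%, 9.90% and 8.69% in chloride against 46.7% and 49.0% in propionate. Its retained-intron transcript of 3241 bases was at 1.07, 2.15 and 1.88 TPM in chloride and 14.8 and 15.7 in propionate, while its coding transcript of 2953 bases was at 10.3, 28.4 and 30.6 against 9.10 and 8.81. An assembled transcript of the locus took 31.6, 8.08 and 8.02 TPM in chloride and 9.02 and 8.84 in propionate, so the coding estimate of chloride replicate 1 was low where the assembled one was high. No test was run on these shares.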
